A study of Mus musculus with 15 samples.

Results

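GATA factors are zinc-finger proteins that bind the DNA word from which they take their name, and FOG proteins are the large zinc-finger cofactors that attach to them. The members described here are 7 of the 37991 gene rows of a mouse RNA sequencing count table. They were taken by gene symbol: the GATA factors Gata2, Gata3, Gata4, Gata5 and Gata6, and the FOG cofactors Zfpm1 (Fog1) and Zfpm2 (Fog2). Of the 7 members, 6 passed the filter on low counts. The study took fibroblasts through cardiac reprogramming, in 15 libraries of total RNA that fall into 5 groups of 3. Each group is labelled wild type on a mixed C57BL/6 and 129J/SvE background.

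The starting group was secondary mouse embryonic fibroblasts (2nd MEFs, here MEFs) at passage 3 in MEF medium, derived by a method the labels credit to Wernig and colleagues. Secondary MEFs of that kind are known to carry drug-inducible transgenes for Pou5f1, Sox2, Klf4 and Myc, but the labels name no transgene and give wild type as the genotype. For the day 9 group the medium was changed along the way: reprogramming medium lasted 6 days, transdifferentiation medium the next 2 days, and ieCPC basal medium with the supplement labelled BACS the last day. The ieCPCs, known from the study as induced expandable cardiovascular progenitor cells, were sorted on day 13 and grown in ieCPC basal medium with BACS. They were sampled at passage 3 (P3) and at passage 12 (P12). The last group, labelled CM, holds the cardiac derivatives collected after 25 days in serum-free differentiation medium (CM derivatives). The labels do not give the passage of the ieCPCs that were differentiated, so the CM derivatives were set against both passages. Nor do they state whether the 3 replicates of a group were grown separately. The p-values then reflect no more than how these libraries scatter, which may be technical.

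As background, GATA factors are often split by where they act. Gata1, Gata2 and Gata3 are known for blood, and Gata2 and Gata3 also for trophoblast, neurons and urogenital tissue, while Gata4, Gata5 and Gata6 are known for heart, gut and extraembryonic endoderm. In the heart, Gata4 and Gata6 bind next to Nkx2-5, Tbx5, Mef2 and Hand proteins at genes of the contractile apparatus. Fog1 and Fog2 do not bind DNA by themselves. They attach to the amino-terminal zinc finger of a GATA factor and bring in corepressors, CtBP and the NuRD complex among them, and Fog2 is needed in mice for normal heart and coronary vessel formation.

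Total counts per library ran from 21823056 to 29996464, with 21406 to 23226 genes detected. The CM derivatives stood apart in composition: 52.0% to 59.4% of their counts lay on the mitochondrial chromosome, compared with 20.8% to 28.3% in the other groups. Levels are therefore given in CPM, the counts of a gene per 1000000 counts of a library whose size was scaled by the TMM method, and groups by their mean ± SD (n = 3). CM replicate 3 differed from the other CM libraries more than those differed from each other (chi-square per degree of freedom 25.7 and 40.8, compared with 10.5). Each CM result that it moved across the threshold or by over 1.5 times is given without it too. All 12 cardiomyocyte markers with usable rows reached 1 CPM in every CM library, with a summed level of 21552, 14482 and 30122 CPM in replicates 1, 2 and 3. The same markers summed to 14.3 to 16.3 CPM in MEFs, 91.2 to 102 CPM in P3 ieCPCs and 167 to 210 CPM in P12 ieCPCs. Ttn alone gave 13691, 9224 and 19525 CPM of the CM sums. It had 10.6 ± 1.44 CPM in MEFs, 40.9 ± 3.88 at P3 and 122 ± 15.2 at P12. From P3 to P12 the list was called in both directions, with 4 markers higher and 3 lower (17.3% and 19.5% of all genes). Tnnt2 fell in that step from 33.0 ± 3.18 to 7.40 ± 0.391 CPM. All 9 fibroblast markers reached 1 CPM in every library of every group, but their levels changed. In P3 ieCPCs 3 of the 9 were called higher and 5 lower than in MEFs, compared with 33.3% and 32.5% of all genes. Thy1 fell from 415 ± 17.9 to 1.18 ± 0.142 CPM in that comparison, while Lum rose 22.2-fold. In bulk RNA, fewer cells of a type and less RNA per cell cannot be told apart.

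Promoter sequences were at hand for 4 of the 7 members, from RefSeq on the build GRCm38.p6, each running from 250 bases before the transcription start to 50 bases after it. Those of Gata2, Gata3 and Zfpm1 are shown because the first pair fell together between the fibroblasts and the P3 ieCPCs while Zfpm1 rose. Gata2 has a start at chr6:88193641-88193940 (plus strand) and another at chr6:88198414-88198713 (plus strand), and gene counts do not tell which was used. Gata3 starts in chr2:9878551-9878850 (minus strand) and Zfpm1 in chr8:122281891-122282190 (plus strand). Capitals mark a GATA word, searched on both strands as the letters GATA with A or T before them and A or G after them, which makes 4 words of 6 letters.
Gata2, upstream start: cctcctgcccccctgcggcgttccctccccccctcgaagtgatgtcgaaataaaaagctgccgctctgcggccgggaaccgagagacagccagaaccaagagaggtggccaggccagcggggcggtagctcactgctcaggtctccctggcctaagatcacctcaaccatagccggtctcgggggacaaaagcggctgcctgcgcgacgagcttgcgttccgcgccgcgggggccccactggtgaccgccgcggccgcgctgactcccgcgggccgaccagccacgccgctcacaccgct
Gata2, downstream start: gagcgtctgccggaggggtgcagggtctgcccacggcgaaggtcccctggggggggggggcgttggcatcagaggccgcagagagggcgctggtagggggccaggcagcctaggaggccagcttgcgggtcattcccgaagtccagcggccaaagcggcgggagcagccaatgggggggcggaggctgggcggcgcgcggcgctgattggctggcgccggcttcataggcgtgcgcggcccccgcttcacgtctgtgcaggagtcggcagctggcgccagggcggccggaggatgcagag
Gata3: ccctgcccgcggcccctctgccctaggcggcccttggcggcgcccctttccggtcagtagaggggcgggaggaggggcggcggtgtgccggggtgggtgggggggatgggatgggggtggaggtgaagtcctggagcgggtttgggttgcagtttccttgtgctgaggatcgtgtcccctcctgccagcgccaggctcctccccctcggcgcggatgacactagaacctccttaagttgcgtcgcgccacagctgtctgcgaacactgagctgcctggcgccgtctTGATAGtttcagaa
Zfpm1: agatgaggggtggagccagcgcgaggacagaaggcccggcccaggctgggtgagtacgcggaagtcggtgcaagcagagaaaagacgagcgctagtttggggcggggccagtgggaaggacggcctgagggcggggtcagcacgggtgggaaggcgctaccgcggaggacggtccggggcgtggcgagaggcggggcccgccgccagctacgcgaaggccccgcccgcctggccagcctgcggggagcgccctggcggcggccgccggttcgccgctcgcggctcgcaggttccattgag
Only the Gata3 promoter held a match, TGATAG at position 287 counted from the 5′ end. The promoter of Gata5 (chr2:180334630-180334929, minus strand) held none either. Of all 32851 promoters of this length, 29.8% held at least 1 of the 4 words, and 7.29% held TGATAG. The members' promoters were rich in CpG, with 22 to 37 CpG per promoter compared with a median of 7 (quartiles 3 and 20) over all promoters. Their GC content was 67.3% to 73.7%, where the median promoter had 52.7%. These are descriptions of the letters in the windows and not of binding. Positions below are on mm9, the build of the counts, and are not comparable with those above.

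Gata4, the GATA factor best known for the early heart, was close to absent from the fibroblasts and was present in every later group. The gene (ENSMUSG00000021944) lies on the minus strand of chromosome 14, from 63817759 to 63890529. MEF libraries held 10, 7 and 6 counts, or 0.384, 0.280 and 0.211 CPM. At day 9 the level was 11.6, 11.6 and 10.6 CPM, and in P3 ieCPCs it was 69.6, 77.7 and 79.0 CPM. P12 ieCPCs had 29.9, 29.0 and 27.9 CPM. The CM derivatives had 63.3, 60.8 and 103 CPM, replicate 3 being the high one. Each group was thus clear of its neighbours in level except P3 ieCPCs and CM derivatives, whose libraries overlapped. By edgeR's quasi-likelihood test with Benjamini-Hochberg adjustment, Gata4 rose 38.2-fold by day 9 (log2 fold change 5.26 ± 0.30 SE, adjusted p = 9.63e-13). It rose a further 6.71-fold from day 9 to P3 ieCPCs (2.75 ± 0.14, adjusted p = 4.17e-14), which makes 256-fold over MEFs. From P3 to P12 it fell 2.60-fold (-1.38 ± 0.13, adjusted p = 5.25e-09).

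In the CM derivatives Gata4 was not called different from P3 ieCPCs, at a log2 fold change of -0.00 with a 95% interval of -0.25 to 0.25 (adjusted p = 0.996). That value rests on CM replicate 3: without it Gata4 was lower in the CM derivatives, at -0.29 (adjusted p = 0.000344). Against P12 ieCPCs it rose 2.60-fold (1.38 ± 0.13, adjusted p = 1.83e-09), and by 1.09 on the log2 scale without replicate 3.

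Gata6, which overlaps with Gata4 in function in the heart and is a master factor of extraembryonic endoderm, followed the same order from a higher start. It lies on the plus strand of chromosome 18, from 11052508 to 11085633 (ENSMUSG00000005836). The MEF libraries already had 6.79, 6.89 and 6.00 CPM. Day 9 libraries had 15.6, 15.02 and 15.7 CPM, P3 ieCPCs 109, 113 and 114 CPM, and P12 ieCPCs 60.4, 59.5 and 57.4 CPM. The CM derivatives had 116, 121 and 149 CPM. No group overlapped another. Gata6 rose 2.36-fold by day 9 (1.24 ± 0.10, adjusted p = 1.92e-10) and 7.25-fold from day 9 to P3 ieCPCs (2.86 ± 0.08, adjusted p = 6.81e-19), or 17.1-fold over MEFs. It fell 1.90-fold from P3 to P12 (-0.92 ± 0.07, adjusted p = 2.61e-10). The CM derivatives stood 2.17-fold above P12 ieCPCs (1.12 ± 0.07, adjusted p = 2.21e-12). Against P3 the rise was small, at 1.15-fold (0.20 ± 0.07, adjusted p = 0.0159), and without CM replicate 3 it was 0.07 and no longer called (adjusted p = 0.244).

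An antisense gene, 1010001N08Rik, shares 58 exonic bases with Gata6. It had 0.293 ± 0.107 CPM in MEFs, 0.544 ± 0.212 at day 9, 9.51 ± 0.848 in P3 ieCPCs, 5.08 ± 0.0434 in P12 ieCPCs and 8.67 ± 1.29 in CM derivatives. It rose 32.3-fold from MEFs to P3 ieCPCs (5.01 ± 0.23, edgeR adjusted p = 6.58e-15) and fell 1.87-fold from P3 to P12. The strand setting of the counting is not given, so reads of the shared bases cannot be assigned to either gene.

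**Figure D1:**
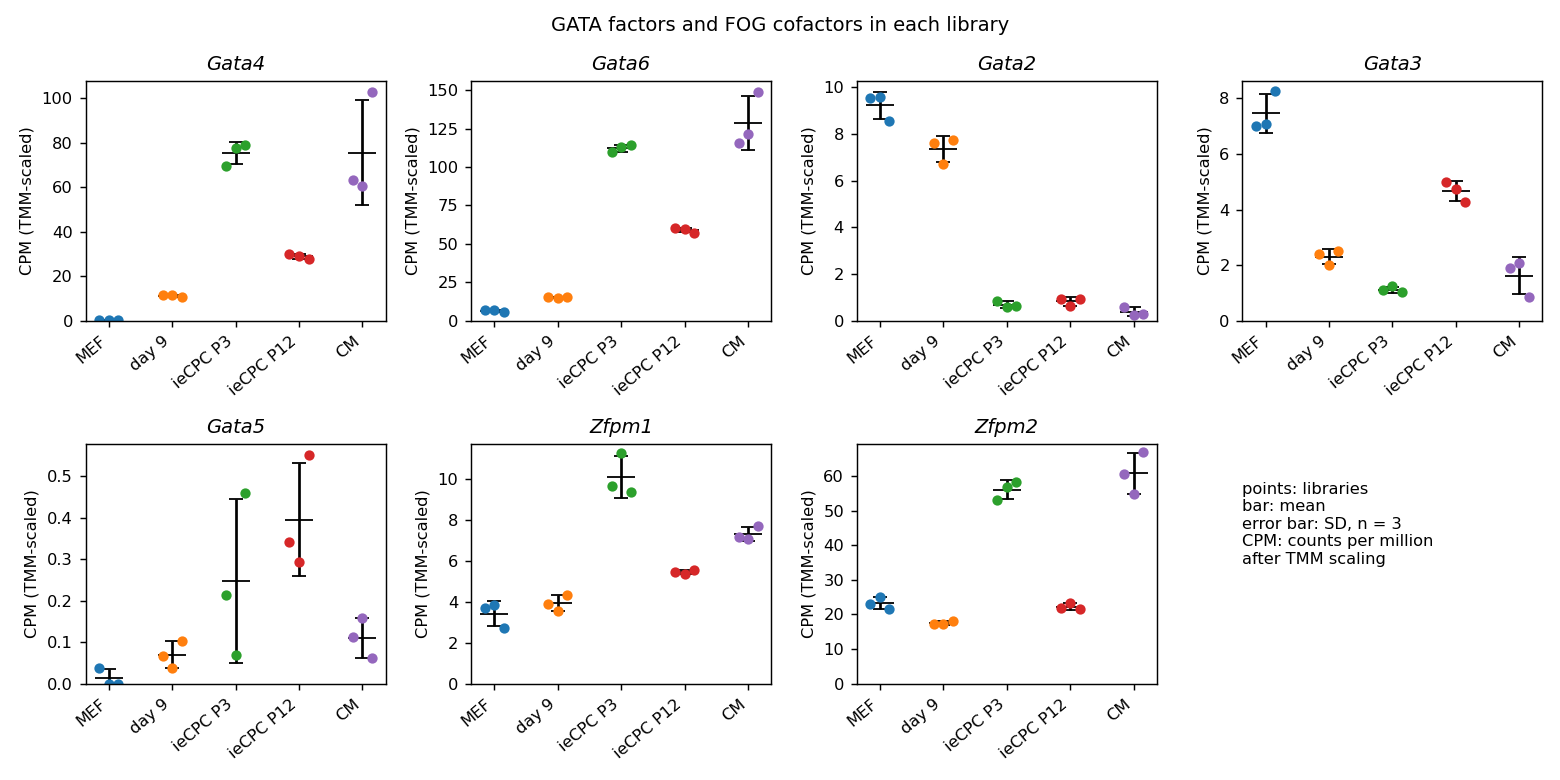
CPM after TMM scaling (y axis, a scale for each gene) of the 7 members in each of the 15 libraries, by group, where a point is a library, the long bar the mean and the error bar the SD of 3 libraries. Gata4 and Gata6 are highest in P3 ieCPCs and CM derivatives, Gata2 and Gata3 are highest in MEFs, and Gata3 returns to 4.28 to 4.98 CPM in P12 ieCPCs.

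Gata2 and Gata3, the members known from blood, trophoblast and neural cells, went the other way. Gata2 (ENSMUSG00000015053, chromosome 6, plus strand, 88143885 to 88157024) had 9.52, 9.57 and 8.57 CPM in MEFs and 7.59, 6.71 and 7.76 CPM at day 9. In P3 ieCPCs only 0.855, 0.586 and 0.636 CPM were left, from 24, 17 and 18 counts. P12 ieCPCs had 0.951, 0.622 and 0.943 CPM, and the CM derivatives 0.615, 0.262 and 0.306 CPM from 11, 5 and 5 counts. MEFs and day 9 cultures were thus clear of the later groups, while the ieCPCs at P3 and P12 overlapped each other, as did P3 ieCPCs and CM derivatives.

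The fall of Gata2 came after day 9. It was 1.25-fold by day 9 (-0.32 ± 0.14, edgeR adjusted p = 0.0458), a call lost with upper-quartile scaling (adjusted p = 0.116), with a filter of 1 CPM in 3 libraries (0.0600) and with several libraries left out, at adjusted p = 0.105 and 0.115 without MEF replicates 1 and 2, and 0.0579 and 0.123 without day 9 replicates 1 and 2. From day 9 to P3 ieCPCs the fall was 10.6-fold (-3.40 ± 0.19, adjusted p = 2.71e-13), and from MEFs to P3 it was 13.2-fold. Between passages Gata2 was not called, at 0.27 with a 95% interval of -0.27 to 0.81 (adjusted p = 0.451). The CM derivatives were 2.11-fold below P12 ieCPCs (-1.07 ± 0.33, adjusted p = 0.00743), or adjusted p = 0.0555 without CM replicate 2. They were 1.75-fold below P3 ieCPCs (-0.80 ± 0.34, adjusted p = 0.0447). That last call was lost with DESeq2 (0.0606), limma voom (0.0791) and no filter beyond 1 count (0.0600). It was also lost without P3 replicate 1 or 3 (adjusted p = 0.160 and 0.0539), without CM replicate 2 or 3 (0.207 and 0.142) and without day 9 replicate 1 (0.0508).

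Gata3 (ENSMUSG00000015619, chromosome 2, minus strand, 9778705 to 9811661) was highest in MEFs at 7.02, 7.09 and 8.25 CPM. Day 9 cultures had 2.40, 2.01 and 2.53 CPM and P3 ieCPCs 1.10, 1.24 and 1.03 CPM. P12 ieCPCs were back at 4.98, 4.72 and 4.28 CPM. The CM derivatives had 1.90, 2.10 and 0.856 CPM, with replicate 3 below the lowest P3 library. MEF and P12 libraries overlapped no other group, whereas the CM derivatives overlapped both day 9 and P3.

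Unlike Gata2, Gata3 fell early, by 3.21-fold to day 9 (-1.68 ± 0.17, edgeR adjusted p = 1.89e-08), and by 2.06-fold more to P3 ieCPCs (-1.04 ± 0.22, adjusted p = 0.000252). MEFs and P3 ieCPCs differed by 6.61-fold. With passage it was the 1 member that rose, 4.13-fold from P3 to P12 (2.05 ± 0.20, adjusted p = 2.08e-08), to 4.66 ± 0.354 CPM, compared with 7.45 ± 0.691 CPM in MEFs. The CM derivatives were 2.83-fold below P12 ieCPCs (-1.50 ± 0.21, adjusted p = 1.11e-06). Against P3 ieCPCs Gata3 was not called, at 0.55 with a 95% interval of 0.03 to 1.06 (adjusted p = 0.0621). It was called higher in the CM derivatives with DESeq2 (0.55, adjusted p = 0.0499) and without CM replicate 3 (0.82, adjusted p = 0.00281). Gene models overlap here as well: Gata3 shares 77 exonic bases with 9230102O04Rik and 155 with Gm13256, so its counts are uncertain to that extent. The antisense gene 4930412O13Rik in the span of Gata3 shares no exonic base, and had 32 counts over the P12 libraries and 3 to 5 counts over each other group.

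Gata5, a factor of endocardium and epicardium, stayed near the detection limit. The gene (ENSMUSG00000015627, chromosome 2, minus strand, 180059838 to 180069404) did not pass the filter on low counts. MEF libraries held 1, 0 and 0 counts, day 9 libraries 2, 1 and 3, P3 ieCPCs 6, 2 and 13, P12 ieCPCs 9, 8 and 14, and CM derivatives 2, 3 and 1. Only the P12 ieCPCs, at 0.293 to 0.550 CPM, lay clear of the MEF, day 9 and CM libraries. As a ratio of summed counts over MEFs, P12 ieCPCs stood at 31.2 with a 95% counting interval of 5.20 to 1270. P3 ieCPCs stood at 19.6 (3.15 to 809), CM derivatives at 8.95 (1.09 to 412) and day 9 cultures at 5.57 (0.676 to 256). These intervals cover counting error only. In a fit of 28879 genes with no filter beyond 1 count, Gata5 was called higher in P3 ieCPCs than in MEFs (3.84 ± 1.06, edgeR adjusted p = 0.000913) and lower in CM derivatives than in P12 ieCPCs (-1.78 ± 0.75, adjusted p = 0.0464). The other 4 comparisons made no call there, and a fitted size at such counts depends on the prior count. Gata5 shares 258 exonic bases with Gm14318 on the other strand.

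Gata1, the erythroid and megakaryocyte GATA factor, is no member and serves as a reference for the family. It held 14, 8 and 13 counts in the day 9 libraries, 0 in all MEF and CM libraries, 3 over the P3 ieCPCs and 2 over the P12 ieCPCs. Placing 3 counts over the MEF group puts day 9 at least 10.8-fold higher. The ratio of day 9 to P3 ieCPCs was 11.6 (95% counting interval 3.67 to 59.1).

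The FOG cofactors rose with Gata4 and Gata6 from day 9 to P3 ieCPCs and fell with them from P3 to P12, but neither was called higher by day 9. Zfpm2 (ENSMUSG00000022306) spans chromosome 15 from 40486588 to 40936138 on the plus strand. MEF libraries had 23.1, 25.2 and 21.6 CPM and day 9 libraries 17.1, 17.4 and 18.0 CPM. P3 ieCPCs had 53.2, 56.9 and 58.4 CPM, P12 ieCPCs 21.8, 23.3 and 21.7 CPM, and CM derivatives 60.7, 54.9 and 66.9 CPM. MEFs and P12 ieCPCs overlapped, as did P3 ieCPCs and CM derivatives, and day 9 lay below all. Zfpm2 fell 1.33-fold by day 9 (-0.41 ± 0.08, edgeR adjusted p = 9.24e-05), while Gata4 and Gata6 rose, and then rose 3.21-fold to P3 ieCPCs (1.68 ± 0.07, adjusted p = 4.38e-15). From MEFs to P3 the rise was 2.41-fold. It fell 2.52-fold to P12 (-1.33 ± 0.07, adjusted p = 8.48e-13), and the CM derivatives were 2.73-fold above P12 (1.45 ± 0.07, adjusted p = 5.01e-14). Against P3 ieCPCs it was not called, at 0.11 with a 95% interval of -0.03 to 0.26 (adjusted p = 0.162), although it was without CM replicate 2 (0.18, adjusted p = 0.0337).

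Zfpm1, known from erythroid and megakaryocyte development as the partner of Gata1, was the scarcer cofactor. It lies on the plus strand of chromosome 8, from 124806039 to 124861146 (ENSMUSG00000049577). MEFs had 3.68, 3.84 and 2.70 CPM and day 9 cultures 3.90, 3.57 and 4.34 CPM, with overlap. P3 ieCPCs had 9.65, 11.3 and 9.37 CPM, P12 ieCPCs 5.44, 5.35 and 5.54 CPM, and CM derivatives 7.16, 7.08 and 7.71 CPM, each group clear of the others. No call was made by day 9 (0.21, 95% interval -0.08 to 0.51, edgeR adjusted p = 0.210). Zfpm1 then rose 2.56-fold to P3 ieCPCs (1.36 ± 0.13, adjusted p = 2.88e-09), or 2.97-fold from MEFs. It fell 1.86-fold to P12 (-0.89 ± 0.12, adjusted p = 3.55e-06). The CM derivatives lay between the passages, 1.38-fold below P3 (-0.47 ± 0.12, adjusted p = 0.00237) and 1.34-fold above P12 (0.43 ± 0.13, adjusted p = 0.00776).

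Read by comparison, 3 to 6 of the 6 tested members were called at each step, on a background where many genes were. By day 9, 5 of the 6 tested members were called, compared with 57.2% of all tested genes called. Gata4 and Gata6 were higher (29.7% of all genes were), and Gata2, Gata3 and Zfpm2 lower (27.4%). From day 9 to P3 ieCPCs all 6 were called, with a background of 60.7%. Gata4, Gata6, Zfpm1 and Zfpm2 rose, where 28.4% of all genes did, and Gata2 and Gata3 fell, where 32.3% did. P3 ieCPCs and MEFs share those libraries with the steps before, and there too the same 4 members were higher and the same 2 lower, on backgrounds of 65.8% called, 33.3% higher and 32.5% lower.

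From P3 to P12, 5 of 6 were called where 36.8% of genes were. Gata4, Gata6, Zfpm1 and Zfpm2 fell (19.5% of all genes), Gata3 rose (17.3%) and Gata2 was not called. Between CM derivatives and P3 ieCPCs 3 of 6 were called, on a background of 63.1%. Gata6 was higher, as 31.9% of all genes were, and Gata2 and Zfpm1 were lower, as 31.2% were. A fit of those groups alone left 1 of the 3 calls, that of Zfpm1, and leaving out P3 replicate 1 also left 1. Between CM derivatives and P12 ieCPCs all 6 were called (background 62.1%), Gata2 and Gata3 lower (30.8% of all genes) and the other 4 higher (31.3%). Both CM comparisons use the same CM libraries, so their agreement is not independent. The median log2 fold change of all tested genes lay between -0.03 and 0.05 in these comparisons. With upper-quartile scaling it reached 0.12 for day 9 against MEFs and -0.12 for CM derivatives against P12, and no called member changed its direction.

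**Figure D2:**
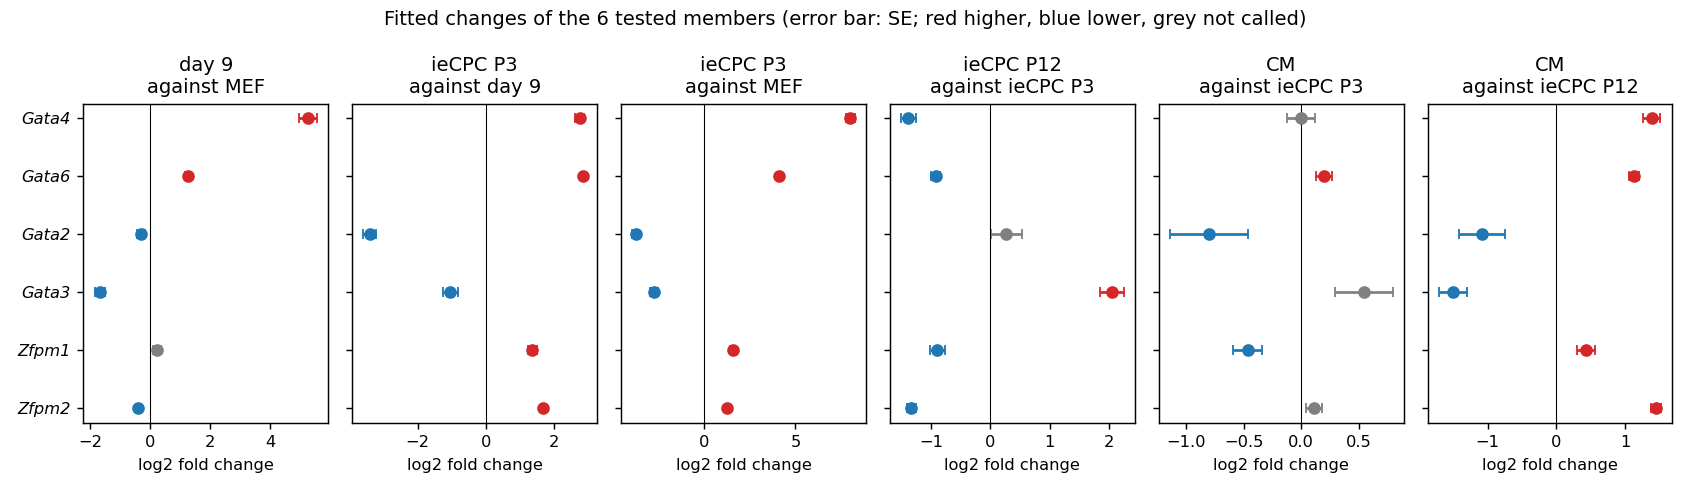
Log2 fold change (x axis, a scale for each panel) of the 6 tested members in the 6 comparisons, where the point is the edgeR estimate and the error bar its SE, red is called higher, blue called lower and grey not called. Gata4, Gata6, Zfpm1 and Zfpm2 lie right of 0 from day 9 to P3 ieCPCs and left of 0 from P3 to P12, and Gata3 is the only member called higher at P12.

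Levels of different genes can be set side by side only per length, so CPM was divided by the length of each gene in kilobases. On that scale Gata2 to Gata6 summed to 6.84, 6.87 and 6.56 CPM per kb in the MEF libraries and to 10.7, 10.2 and 10.6 at day 9. P3 ieCPCs held 52.7, 55.7 and 56.5, P12 ieCPCs 28.2, 27.5 and 26.6, and CM derivatives 53.1, 54.2 and 73.1 CPM per kb. P3 ieCPCs and CM derivatives overlapped and the other groups did not.

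The make-up of this sum differed between the groups. In MEFs Gata2 gave 40.7% ± 1.51, Gata6 30.4% ± 1.52, Gata3 27.8% ± 3.304 and Gata4 1.10% ± 0.311 (SD, n = 3). At day 9 Gata6 gave 46.04% ± 0.429, Gata4 27.4% ± 1.77, Gata2 20.9% ± 1.09 and Gata3 5.52% ± 0.519. In P3 ieCPCs the sum was almost wholly Gata6 (63.9% ± 1.02) and Gata4 (35.1% ± 1.11). P12 ieCPCs kept a Gata6 share of 67.4% ± 0.335 with Gata4 at 27.0% ± 0.157, and Gata3 at 4.27% ± 0.204, compared with 0.515% ± 0.0535 at P3. In the CM derivatives Gata6 gave 67.3% ± 3.31 and Gata4 31.7% ± 3.75. Gata5 stayed below 1% in every library.

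**Figure D3:**
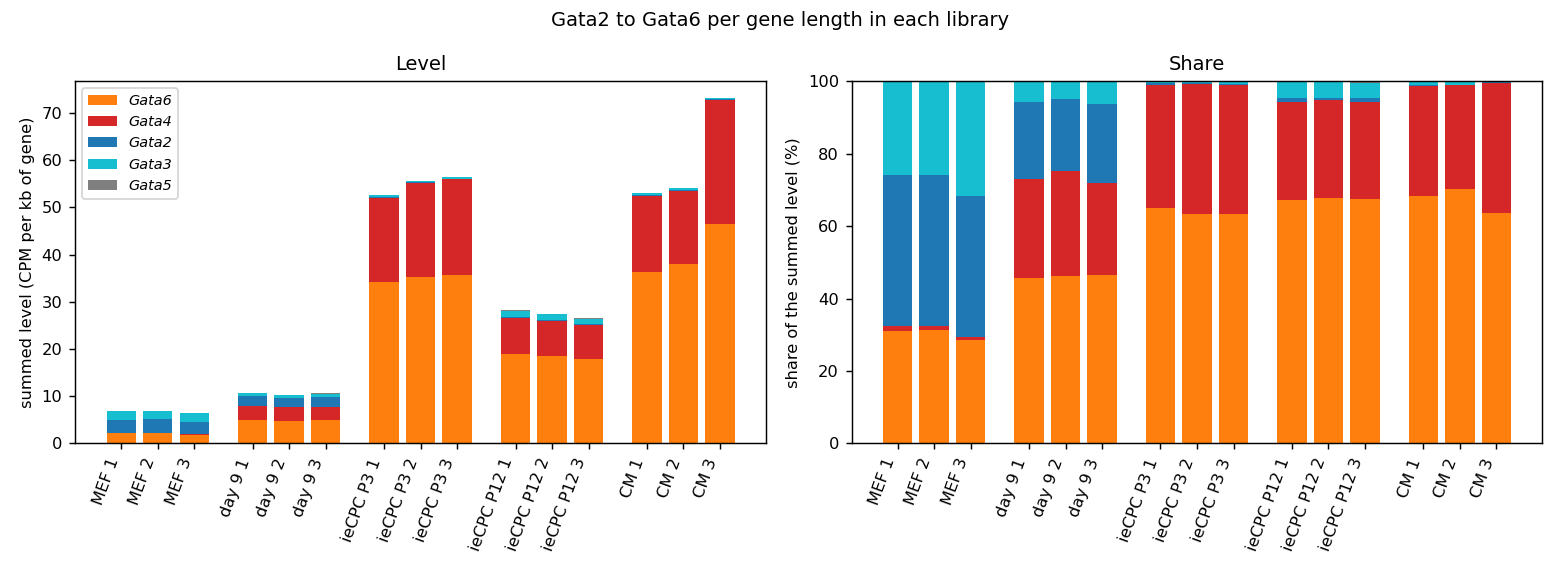
Left, summed level of Gata2 to Gata6 in CPM per kb of gene length (y axis) in each of the 15 libraries, stacked by gene; right, the same as a share in percent. The sum is below 11 CPM per kb in the MEF and day 9 libraries and above 52 in the P3 and CM libraries, where Gata6 and Gata4 fill it.

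Ratios within a library do not depend on its scaling. Per kb, Gata4 reached 0.0360 ± 0.00907 of the Gata6 level in MEFs and 0.595 ± 0.0402 at day 9. P3 ieCPCs had 0.549 ± 0.0259, overlapping with day 9 (exact permutation test, 2-sided, p = 0.3), and P12 ieCPCs 0.400 ± 0.00391. The CM libraries had 0.447, 0.409 and 0.564, of which replicate 3 lay among the P3 libraries and the others between the passages. P3 and P12 did not overlap, at p = 0.1 by the exact permutation test, which is the smallest p that 3 libraries against 3 can give.

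Zfpm2, the cofactor known from the heart, had a level of 0.541 ± 0.0307 of the summed GATA factors in MEFs. The ratio was 0.261 ± 0.00984 at day 9, 0.160 ± 0.00169 in P3 ieCPCs and 0.127 ± 0.00595 in P12 ieCPCs, with no overlap among these groups. CM derivatives had 0.161 ± 0.0180 and overlapped with P3 (exact permutation p = 1). Per kb, Zfpm2 exceeded Zfpm1 in every library, 2.25-fold ± 0.129 in P12 ieCPCs at the lowest and 4.56-fold ± 0.270 in CM derivatives at the highest. Zfpm2 over Zfpm1 did not overlap between CM derivatives and either passage (exact permutation p = 0.1, the smallest possible).

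**Figure D4:**
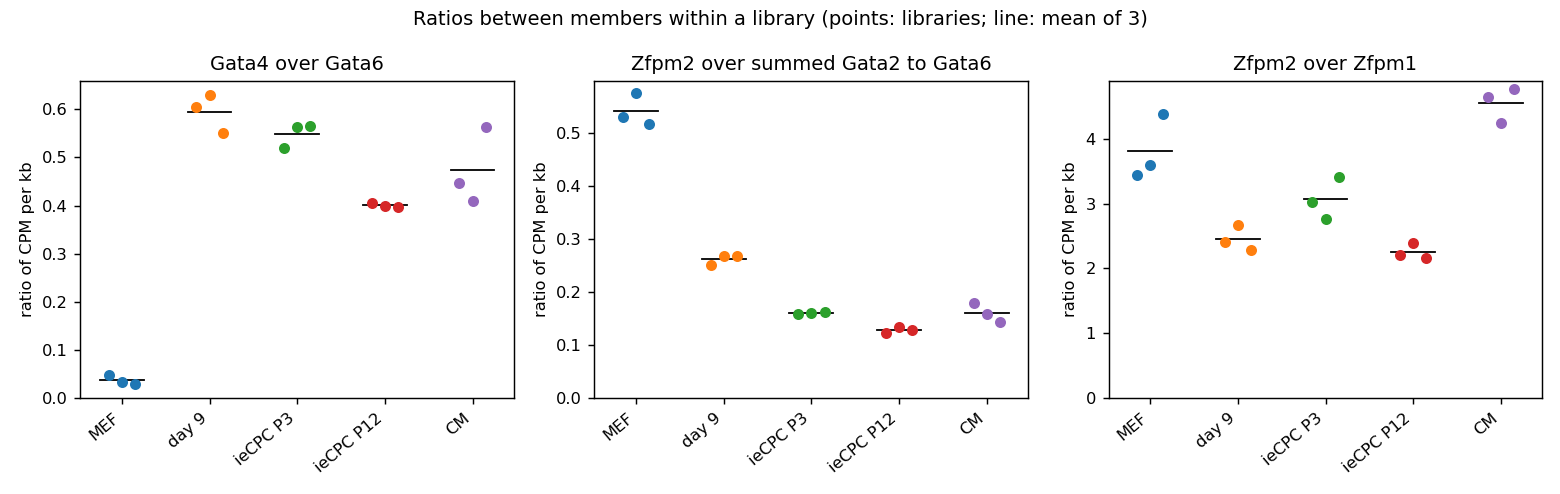
Ratios of CPM per kb between members (y axes, from 0) in each library, where points are libraries and lines are means of 3: Gata4 over Gata6, Zfpm2 over the sum of Gata2 to Gata6, and Zfpm2 over Zfpm1. Gata4 over Gata6 is below 0.05 in MEFs and 0.55 to 0.63 at day 9, and Zfpm2 over the GATA sum is highest in MEFs.

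The proteins known to work with GATA factors at heart genes changed in part. Of 25 such partners, all tested, 9 were higher and 10 lower at day 9 than in MEFs (median log2 fold change -0.10), and 10 were higher and 6 lower in P3 ieCPCs than at day 9 (median 0.16). Over all genes 29.7% were higher and 27.4% lower at day 9, and 28.4% higher and 32.3% lower from day 9 to P3 ieCPCs. Tbx20 encodes a T-box protein of the embryonic heart that binds Gata4, and it rose 107-fold in that step, from 1.93 ± 0.400 to 205 ± 3.87 CPM. Hand2, a basic helix-loop-helix factor, rose 19.6-fold from 1.69 ± 0.548 to 33.0 ± 0.818 CPM (4.29 ± 0.13, edgeR adjusted p = 3.5e-18). Lmcd1, a LIM protein known to hold back Gata6 in mice, rose 8.10-fold to 10.1 ± 0.920 CPM (3.02 ± 0.16, adjusted p = 1.36e-13). Mef2c rose 4.16-fold to 81.3 ± 1.95 CPM (2.06 ± 0.07, adjusted p = 1.14e-16). Nkx2-5, the homeobox partner of Gata4, was at 0 counts in all MEF and day 9 libraries and had 18 counts over the P3 ieCPCs, at least 6.02-fold higher than day 9 when 3 counts are placed over that group.

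With passage, 6 partners were higher and 9 lower (median 0.00), compared with 17.3% and 19.5% of all genes. Hand1 rose 19.0-fold from 2.40 ± 0.125 to 45.7 ± 4.16 CPM (4.25 ± 0.16, edgeR adjusted p = 1.58e-15), and Isl1, a LIM homeobox factor of cardiac progenitors, rose 3.27-fold. Tbx5 fell 9.85-fold from 6.64 ± 0.229 to 0.669 ± 0.252 CPM (adjusted p = 6.58e-09), and Lmcd1 fell 3.24-fold. The CM derivatives had 12 partners higher and 7 lower than P3 ieCPCs (median 0.29), or 12 higher and 9 lower without CM replicate 3. With all libraries 31.9% of all genes were higher there and 31.2% lower. Nkx2-5 was at 2.12, 1.63 and 3.12 CPM in the CM libraries and Tbx5 at 24.5, 19.4 and 41.7 CPM, 10.6-fold and 4.28-fold above P3. Myocd, a coactivator of muscle genes, had 21.5, 18.5 and 52.5 CPM and was 6.85-fold above P3, or 4.45-fold without CM replicate 3. Replicate 3 was the highest for each of these 3 genes, and also for Gata4 and for the summed cardiomyocyte markers. Hey1, a repressor known to bind Gata4, was 11.02-fold lower in CM derivatives than in P3 ieCPCs (-3.46 ± 0.19, adjusted p = 1.5e-13).

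Corepressors and other proteins known to bind FOG were called in both directions. Of 15 tested, 2 were higher and 6 lower at day 9 (median -0.08), 4 higher and 4 lower from there to P3 (median -0.05), and 1 higher and 6 lower at P12 (median -0.10). Over all genes 57.2%, 60.7% and 36.8% were called in these steps, so the share called in this list was near or below the background at the first 2 of them. CM derivatives had 4 higher and 8 lower than P3 ieCPCs (median -0.20) and 4 higher and 9 lower than P12 (median -0.23). Without CM replicate 3 these counts were 4 and 9, and 4 and 8. With all libraries, 31.9% of all genes were higher and 31.2% lower than P3 ieCPCs, and 31.3% and 30.8% than P12. Ctbp2, a CtBP corepressor, was between 23.2 ± 0.759 and 26.6 ± 1.24 CPM in all 5 groups, and its relative Ctbp1 between 18.1 ± 2.03 and 27.6 ± 0.916 CPM. The NuRD deacetylase genes Hdac1 and Hdac2 were 1.95-fold and 1.90-fold lower in CM derivatives than in P3 ieCPCs (edgeR adjusted p = 1.59e-12 and 1.49e-12), from 80.6 ± 4.74 to 41.3 ± 2.61 CPM and from 161 ± 4.68 to 84.5 ± 2.53 CPM. Tacc3, a centrosomal protein that binds Fog1 and is made by dividing cells, fell 2.96-fold to 14.8 ± 1.91 CPM. Nr2f2, a nuclear receptor that binds Fog2, was lower at P12 than at P3 and higher in CM derivatives than at P12, as Zfpm2 was. It was at 18.3 ± 1.01 CPM in P3 ieCPCs, fell 2.57-fold to 7.14 ± 0.843 at P12 (-1.36 ± 0.10, adjusted p = 2.02e-10), and stood at 34.4 ± 4.65 in CM derivatives, 4.83-fold above P12. Both of these comparisons use the P12 libraries, and the genes differed elsewhere. From MEFs to P3 ieCPCs Nr2f2 fell 1.73-fold while Zfpm2 rose 2.41-fold. Nr2f2 was 1.88-fold higher in CM derivatives than in P3 ieCPCs, where Zfpm2 was not called. Pik3r1, a subunit of the lipid kinase that Fog2 is known to bind and restrain, rose 2.05-fold by day 9 and was 2.64-fold above MEFs in P3 ieCPCs.

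Of 6 other genes with GATA-type zinc fingers, 5 were tested. Trps1, a GATA-type repressor of bone and cartilage, stood at 161 ± 4.60 CPM in MEFs. It fell 1.41-fold by day 9, rose 1.76-fold to 202 ± 4.64 CPM in P3 ieCPCs and 1.33-fold to 269 ± 10.2 CPM at P12, and was 1.97-fold lower in CM derivatives than at P12. Gatad2a, a NuRD subunit, was 1.66-fold lower in P3 ieCPCs than at day 9 and 1.59-fold lower again in CM derivatives. In the CM derivatives 1 of the 5 was higher and 3 lower than in P3 ieCPCs (median -0.46), compared with 31.9% and 31.2% of all genes.

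Genes known as direct cardiac targets of GATA factors were mostly higher in the CM derivatives than in P3 ieCPCs. In that comparison Gata4 was not called and Gata6 was called 1.15-fold higher. Without CM replicate 3 Gata4 was called lower (-0.29, edgeR adjusted p = 0.000344) and Gata6 was not called. A link between the members and these targets was not tested. Of 18 measured targets, 7 were higher and 1 lower at day 9 than in MEFs (median 0.68), and 8 were higher and 2 lower in P3 ieCPCs than in MEFs (median 1.22). Over all genes these shares were 29.7% and 27.4% at day 9, and 33.3% and 32.5% in P3 ieCPCs. Of the 18, only 6 or 7 reached 1 CPM in a MEF library, 8 or 9 in a day 9 library and 11 or 12 in a P3 library. Chrm2, the muscarinic receptor gene of heart muscle, went from 2 counts over the MEF libraries to 21.8 ± 0.262 CPM in P3 ieCPCs. Corin, the protease that activates natriuretic peptide, went from 0.133 ± 0.130 to 27.8 ± 0.330 CPM in P3 ieCPCs (7.60 ± 0.32, edgeR adjusted p = 1.2e-15). From P3 to P12, 3 targets rose and 8 fell (median -0.03), where 17.3% and 19.5% of all genes did. Tnnt2 changed most, falling 4.46-fold to 7.40 ± 0.391 CPM after a 45.0-fold rise from MEFs to P3 ieCPCs. Actc1, the cardiac actin gene, rose 4.36-fold to 39.2 ± 4.97 CPM. Tnni3 fell 3.70-fold to 0.287 ± 0.197 CPM, and Ankrd1, a cofactor gene of heart muscle, fell 3.58-fold to 3.19 ± 0.246 CPM.

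The CM derivatives had 15 of the 18 targets higher and 2 lower than P3 ieCPCs (median 4.16), and 15 higher and 2 lower than P12 (median 4.36). Without CM replicate 3 these counts were 13 higher and 2 lower, and 15 higher and 3 lower. With all libraries, 31.9% of all genes were higher and 31.2% lower than P3 ieCPCs, and 31.3% and 30.8% than P12. Myh6 and Myh7, the cardiac myosin heavy chain genes, were at 2129, 1244 and 2307 CPM and at 337, 243 and 584 CPM in the CM libraries, compared with 0.716 ± 0.212 and 0.0935 ± 0.0536 CPM in P3 ieCPCs. Their log2 fold changes were 11.36 ± 0.31 and 11.94 ± 0.39 (adjusted p = 8.03e-19 and 1.53e-17). Nppb, a natriuretic peptide gene, had 4 counts over the P3 ieCPCs and 11.2, 10.4 and 19.3 CPM in the CM libraries. These genes are themselves cardiomyocyte markers, so their level follows the share of such cells as well as any change within a cell, and the part of either was not tested.

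Members of the family are also expressed in other cell types that a culture can hold, so marker lists of those were set beside them. At day 9, when Gata4 and Gata6 rose and Gata3 fell, 8 of 9 tested trophoblast markers were higher than in MEFs and none lower, with the list summing to 114 to 122 CPM compared with 4.95 to 5.37 CPM. Eomes reached 45.5 ± 0.218 CPM and Krt8 28.6 ± 2.63 CPM. Of 14 tested extraembryonic endoderm markers, 9 were higher and 1 lower, and the sum of the 15 listed was 184 to 192 CPM compared with 164 to 166 CPM. Dab2 alone gave 102 ± 2.49 CPM of that sum at day 9 and 148 ± 0.592 CPM in MEFs. Over all genes 29.7% were higher and 27.4% lower at day 9. Sox17 had 9.62 ± 0.378 CPM and Foxa2 9.48 ± 0.526 CPM at day 9, from 0 counts in every MEF library, at least 255-fold and 252-fold higher. From day 9 to P3 ieCPCs, where Gata4 and Gata6 rose further, 5 of the 14 endoderm markers were higher and 5 lower (28.4% and 32.3% of all genes). The sum was 211 to 221 CPM at P3, of which Dab2 gave 141 ± 2.16 CPM. Sox17 fell to 0.257 ± 0.0839 CPM and Foxa2 to 0.316 ± 0.128 CPM, while Afp rose from 0.0364 ± 0.0380 to 2.50 ± 0.619 CPM. In the trophoblast list 2 were higher and 7 lower, Cdx2 was at 0 counts, and the sum was 31.6 to 33.5 CPM. At day 9, 11, 11 and 12 of the 12 listed trophoblast genes had a count in replicates 1, 2 and 3. Prl3d1 was at 0 in replicate 1 and Tpbpa in replicate 2. Such lists do not show by themselves that trophoblast or extraembryonic endoderm cells were present. The part of any such cells in the GATA levels was not tested.

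In the CM derivatives the epicardial and mesothelial list, whose cells are known to express Gata4, Gata5 and Gata6, had 6 of 8 markers higher and 1 lower than in P3 ieCPCs, and summed to 226, 231 and 187 CPM, compared with 93.8 to 102 CPM. Upk3b reached 93.1 ± 10.1 CPM and Msln 39.5 ± 12.6 CPM. From P3 to P12, as Gata4, Gata6 and Zfpm2 fell, 5 of these 8 fell and none rose, with Wt1 going from 8.37 ± 0.515 to 0.669 ± 0.123 CPM. In the same step 5 of 6 smooth muscle markers were higher and none lower, with a sum of 1541 to 1598 CPM at P3 and 2793 to 2990 CPM at P12. Myh11 rose 7.76-fold and Cnn1 4.50-fold. Over all genes, 31.9% were higher and 31.2% lower in CM derivatives than in P3 ieCPCs. From P3 to P12 these shares were 17.3% and 19.5%. The trophoblast sum reached 60.5 to 70.01 CPM at P12, of which Hand1, a gene of that list too, gave 45.7 ± 4.16 CPM. The epicardial and mesothelial sum was then 74.6 to 77.6 CPM, but Sema3d alone gave 71.6 ± 1.65 CPM of it. Sema3d also gave 77.4 ± 3.23 CPM of the sum at P3 and 42.0 ± 2.08 in CM derivatives, so these sums say little of the other markers. The fibroblast sum was 15423 to 16158 CPM at P3 and 18361 to 18883 CPM at P12. At P3, Col1a1, Col1a2 and Col3a1 gave 4212 ± 203, 3947 ± 109 and 4634 ± 103 CPM of it. The part of any cells of these types in the change of the members was not tested. The macrophage list, all 10 genes of which reached 1 CPM in MEFs, summed to 298 to 315 CPM in MEFs and 7.51 to 9.13 CPM at day 9. The sum was 36.2 to 37.3 CPM at P3, 22.2 to 24.4 at P12 and 164 to 214 in CM derivatives. Lyz2 gave 216 ± 6.05 CPM of it in MEFs and 143 ± 21.9 in CM derivatives. Gata2 was at 9.22 ± 0.565 CPM in MEFs and 7.36 ± 0.562 at day 9. It was at 0.692 ± 0.143 CPM at P3, 0.839 ± 0.187 at P12 and 0.394 ± 0.192 in CM derivatives. A link of this list with Gata2 was not tested. The endothelial list, whose cells are known to express Gata2, summed to 45.4 to 48.3 CPM in MEFs and day 9 cultures, 109 to 124 CPM in ieCPCs and 45.2 to 51.3 CPM in CM derivatives. The even sums of MEFs and day 9 cover opposite changes, with 6 of 9 tested markers higher and 3 lower at day 9. Over all genes 29.7% were higher and 27.4% lower in that step. Erg weighed most in the ieCPCs: it had 28.0 ± 1.65 CPM in MEFs, 2.35 ± 0.216 at day 9, 52.1 ± 1.26 at P3 and 56.9 ± 5.31 at P12. Of 16 blood progenitor, erythroid and mast cell markers, 3 to 6 reached 1 CPM in a library. The sympathetic and neural crest list, a further known source of Gata2 and Gata3, summed to no more than 3.32 CPM in any library, and the T cell list to at most 22.6 CPM, of which Tcf7 gave 19.4 ± 0.967 CPM at day 9.

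**Figure D5:**
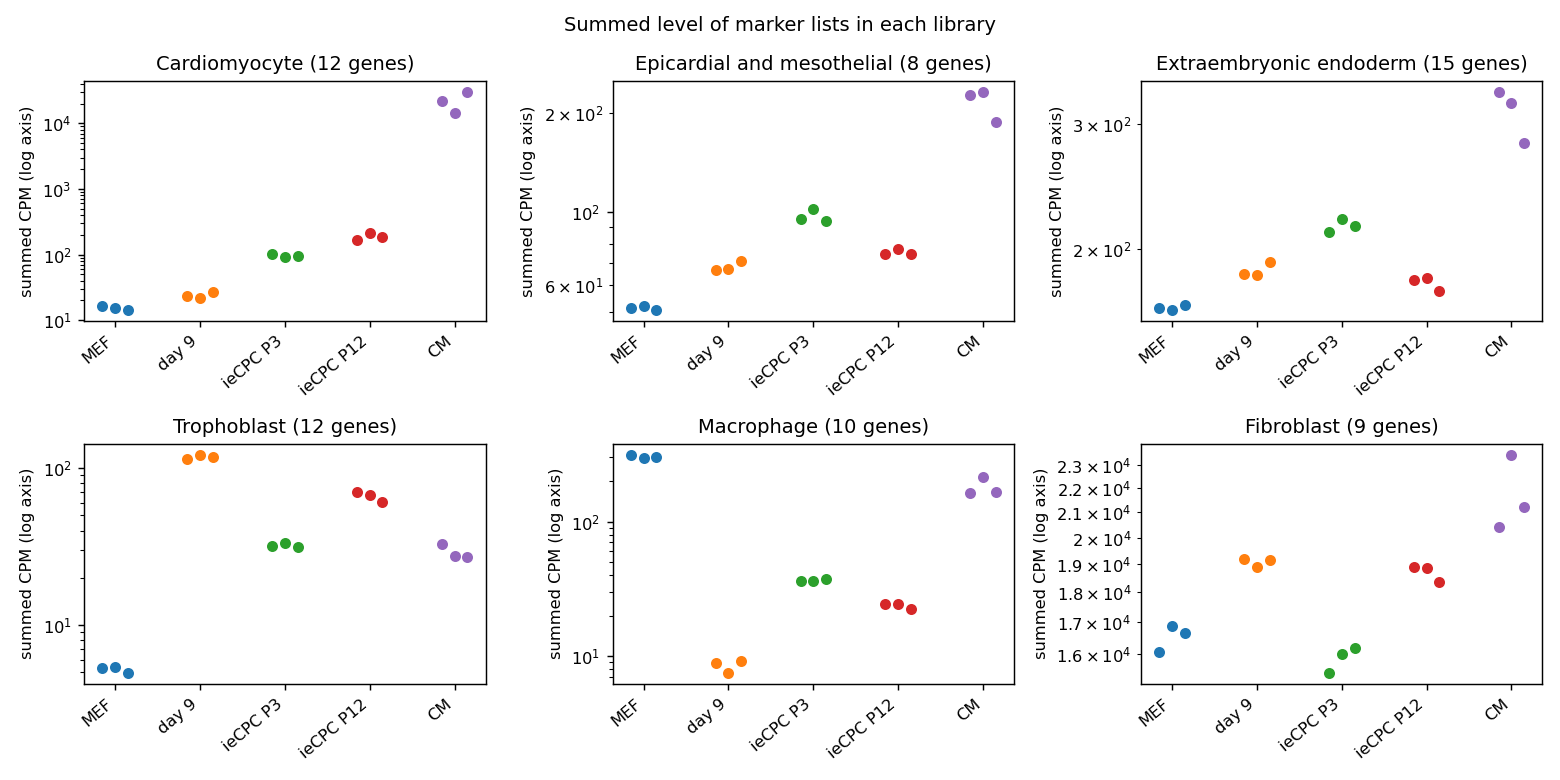
Summed CPM of 6 marker lists (y axes, log scale) in each library, by group. The cardiomyocyte sum is 14482 to 30122 CPM in CM derivatives and below 211 CPM elsewhere, the trophoblast sum is highest at day 9, and the macrophage sum is high in MEFs and CM derivatives. Single genes weigh heavily: Ttn gives most of the cardiomyocyte sum in CM derivatives and Sema3d most of the epicardial and mesothelial sum in ieCPCs. Lyz2 gives most of the macrophage sum in MEFs and CM derivatives.

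The genes whose profile over the 5 group means was nearest to that of a member were found among 2094 genes with a clear range. The measure was the root-mean-square difference of centred log2(CPM + 0.5) values, so it describes 5 points and carries no test. Nearest to Gata4 were Ces2g (0.58), Gfra2 (0.59) and Fmod (0.60), with Gata6 at rank 23 (1.00). Nearest to Gata6 were Rerg (0.23), Wipf3 (0.31) and Gprin3 (0.32), with Gata4 only at rank 306 (1.00). Rerg, for example, had 2.45, 8.95, 51.9, 21.3 and 55.3 CPM from MEFs through day 9, P3 and P12 to CM derivatives. For Gata2 these were Gas2 (0.27), Cdh10 (0.27) and Htr2a (0.28), and for Gata3 they were Cacna1h (0.23), Tspan11 (0.24) and Arl5c (0.29). Zfpm1 had Tec (0.28), Pknox2 (0.29) and Eepd1 (0.31), and Zfpm2 had Bicc1 (0.20), Gatm (0.24) and Camk2n1 (0.26). Of the members, only Gata2, Gata3, Gata4 and Gata6 were among the genes compared, and none of them was among the 3 nearest genes of another member. Zfpm1, Zfpm2 and Gata5 fell short of the limits on range or level, so they could not be named as a near gene.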

How the data were processed

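RNA was sequenced on an Illumina GAIIx from 10 µg of total RNA per library, per the labels' protocols. The submitters' processing notes name TopHat2 2.0.13, featureCounts of Subread and the build mm9. The strand setting is not given in the sources used here. The deposited count values are raw whole numbers for 37991 genes. Besides, the authors deposited CPM for 17925 genes, scaled to the sum over those genes, and left 20066 empty. They could be recomputed from the counts to within rounding and served as a check only. The deposited FPKM columns were not used, and 0 per-sample columns were left unmapped.

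All tests used the counts: edgeR 4.0.16 (limma 3.58.1, R 4.3.3), filterByExpr, TMM scaling and 1 quasi-likelihood model of all 15 libraries, 2-sided, with Benjamini-Hochberg adjustment over 17999 genes and a call at an adjusted p under 0.05. The words rose, fell, higher and lower in counts of genes mean such calls. TMM factors ran from 0.545 to 0.643 for CM and from 0.973 to 1.22 elsewhere. SE is the size of the log2 fold change over the square root of F. Where a group had 0 counts, 3 counts were placed over that group to give a bound. The procedure was also run on simulated data in which few genes changed and all libraries shared a common mean profile. The real groups differed in many genes and in composition, so that simulation does not bear on the scaling of the CM libraries. Alternatives were RLE and upper-quartile scaling, mitochondrial rows left out, DESeq2 1.42.0, limma voom, other filters, only the groups compared, a replicate block and each library left out.

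All 7 members are named throughout. Of each list, at most 4 genes a comparison could be named by rule, namely the called ones with the largest changes whose higher mean reached 1 CPM. Not all of these are given, and the choice among them followed no rule. Nkx2-5 before the CM comparisons, Ctbp1, Ctbp2, Tcf7, Dab2, Gata1 and the genes that overlap members were named after their values were seen. So were the shares of Ttn, Sema3d, Lyz2, Col1a1, Col1a2 and Col3a1 in the sums of their lists, and Prl3d1 and Tpbpa. Genes compared with a member's profile had at least 5 CPM in their highest group and a range of at least 4 times. Tnnc1 was left out because overlapping gene models share its reads. Spi1 and Tfap2c were matched as Sfpi1 and Tcfap2c. The members and the lists were chosen with earlier results of these data known.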

Additional observations from a re-analysis of the deposited data

How the results depend on the processing

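Of 324 values of a member's log2 fold change under settings other than leaving out a library, 310 kept their direction and their side of the threshold, and of 540 with a library left out 518 did. The exceptions lay in Gata2 at day 9 and in the comparisons of CM derivatives, mostly with P3 ieCPCs. The number of members called between CM derivatives and P3 ieCPCs was 1 in place of 3 with only the groups compared, and 1 to 3 with a library left out; the cause was not tested. Gata4 in that comparison had a fold change of about 0 that turned sign, to 0.00867 with RLE, 0.00644 with mitochondrial rows left out, 0.0121 with DESeq2, 0.0167 with the filter of 1 CPM in 3 libraries and 0.0106 with only the groups compared, and ranged from -0.29 to 0.13 with a library left out. Gata2 at day 9 was not called with upper-quartile scaling (-0.26, edgeR adjusted p = 0.116) or the filter of 1 CPM in 3 libraries (-0.30, adjusted p = 0.0600). Gata6 in CM derivatives against P3 was not called with that scaling (0.16, adjusted p = 0.0647). Upper-quartile scaling also moved the split of all called genes, from 3122 higher and 3507 lower to 3935 and 2752 for P12 against P3, and to 4923 higher and 6613 lower for CM derivatives against P12. Replicate numbers did not pair the samples: deviations of same-numbered libraries correlated at -0.04 to 0.03. With the replicate block every member kept its call, for example Gata6 at 0.19 (adjusted p = 0.0194) in CM derivatives against P3, and 11276 genes were called in place of 11354. The list counts and the fold changes of list genes without CM replicate 3 were added after seeing the data. Depth limits Gata5, and Gata2 in CM derivatives, to a few counts a library.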
